A study of Mus musculus with 4 samples.

Results

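Genes of IL-20 subfamily cytokines, IL-17C and receptor chains for the subfamily, IL-22 and IL-17 were examined in mouse skin treated with MC903. The 10 genes were listed by name. They are 4 cytokine genes (Il19, Il20, Il24 and Il17c) and 6 receptor chain genes (Il20ra, Il20rb, Il22ra1, Il10rb, Il17ra and Il17rc). Of these, 8 had a probe set listed under their own symbol, among 18193 genes measured on the arrays. Il19 and Il17c were not analysed here, because the annotation used lists no probe set under their symbols, which left 2 cytokines and all 6 receptor chains. The 8 genes carried 11 probe sets, and where a gene had several, the brightest on average over the 4 arrays was used.

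MC903 (calcipotriol) acts on the vitamin D receptor, and applied to the skin of mice it brings on an inflammation used as a model of atopic dermatitis. MC903 skin was compared with Control skin, 2 arrays each, all from female wild type BALB/c mice. In the MC903 group MC903 was put on the skin after a first oral challenge with ovalbumin (OVA), and in the Control group ethanol (EtOH), its solvent, was. Every mouse had before that been sensitised by OVA together with MC903 on the ear, so Control mice had also met MC903, and every mouse was challenged orally again before skin was taken. Age, the number of animals per array, and whether arrays came from separate animals are not stated. The p-values therefore rest on array to array spread that may be no more than technical.

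Signals had been scaled to a trimmed mean of 500 per array, and median probe-set signals were 90.2 and 99.6 on the MC903 arrays and 109 and 99.7 on the Control arrays. The array's TrpnX controls, which match bacterial and not mouse RNA and serve here as a guide to background, had signals of 1.55 to 24.0. The defining keratins of skin were bright on every array, for example Krt5 at 29772 and 29872 in MC903 skin and 27745 and 27480 in Control skin. The RNA came from bulk skin, in which fewer cells of a type and less RNA per cell cannot be told apart.

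IL-19, IL-20 and IL-24 belong to the IL-10 family and act mainly on epithelial cells. All of them bind the pair of IL-20RA with IL-20RB, and IL-20 and IL-24 also bind IL-22RA1 with IL-20RB. IL-22 uses IL-22RA1 with IL-10RB, and these receptors signal chiefly through STAT3. IL-17A and IL-17F act through IL-17RA with IL-17RC, while IL-17C, a cytokine made by epithelium, acts through IL-17RA with IL-17RE. In keratinocytes both families are known for raising antimicrobial proteins, chemokines and genes of epidermal thickening.

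Il24 stood far higher in MC903 skin, whereas the groups overlapped for its chromosomal neighbour Il20, and the chain on which both cytokines depend, Il20rb, was lower. Il10rb and Il17rc were modestly higher in both MC903 arrays. None of these differences passed the test over all genes (limma, constant prior, adjusted by Benjamini-Hochberg, threshold 0.05), which called 0 of the 18193 genes (0%) and 0 of the 8 measured genes of the set. At an unadjusted p below 0.05, 3 of the 8 were found, against 15.2% of all genes. These were Il24 and Il10rb, higher, against 6.82% of all genes, and Il20rb, lower, against 8.39%. With a limma prior that follows the signal in place of a constant one, 0 of the 8 were called, against 0.923% of all genes, and 2 (Il20rb and Il24) lay below an adjusted p of 0.1, against 2.26%. With 2 arrays per group, the smallest two-sided p of an exact permutation test is 0.333.

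Both MC903 arrays lay above both Control arrays for 3 of the 8 genes, against 21.6% of all genes, and below them for 1 of the 8, against 28.2%. The 4 genes without overlap of the groups compare with 49.7% of all genes, so the count by itself is near the background. After centring on array medians, which moved the median difference of all genes by 0.10 on the log2 scale, the shares of all genes became 30.1% above and 19.7% below, and the same 3 and 1 genes did not overlap. The genes above did depend on other settings: with all probe sets of a gene averaged they were Il24 and Il17ra, without Il10rb and Il17rc, and quantile normalization added Il17ra to the 3.

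**Figure D1:**
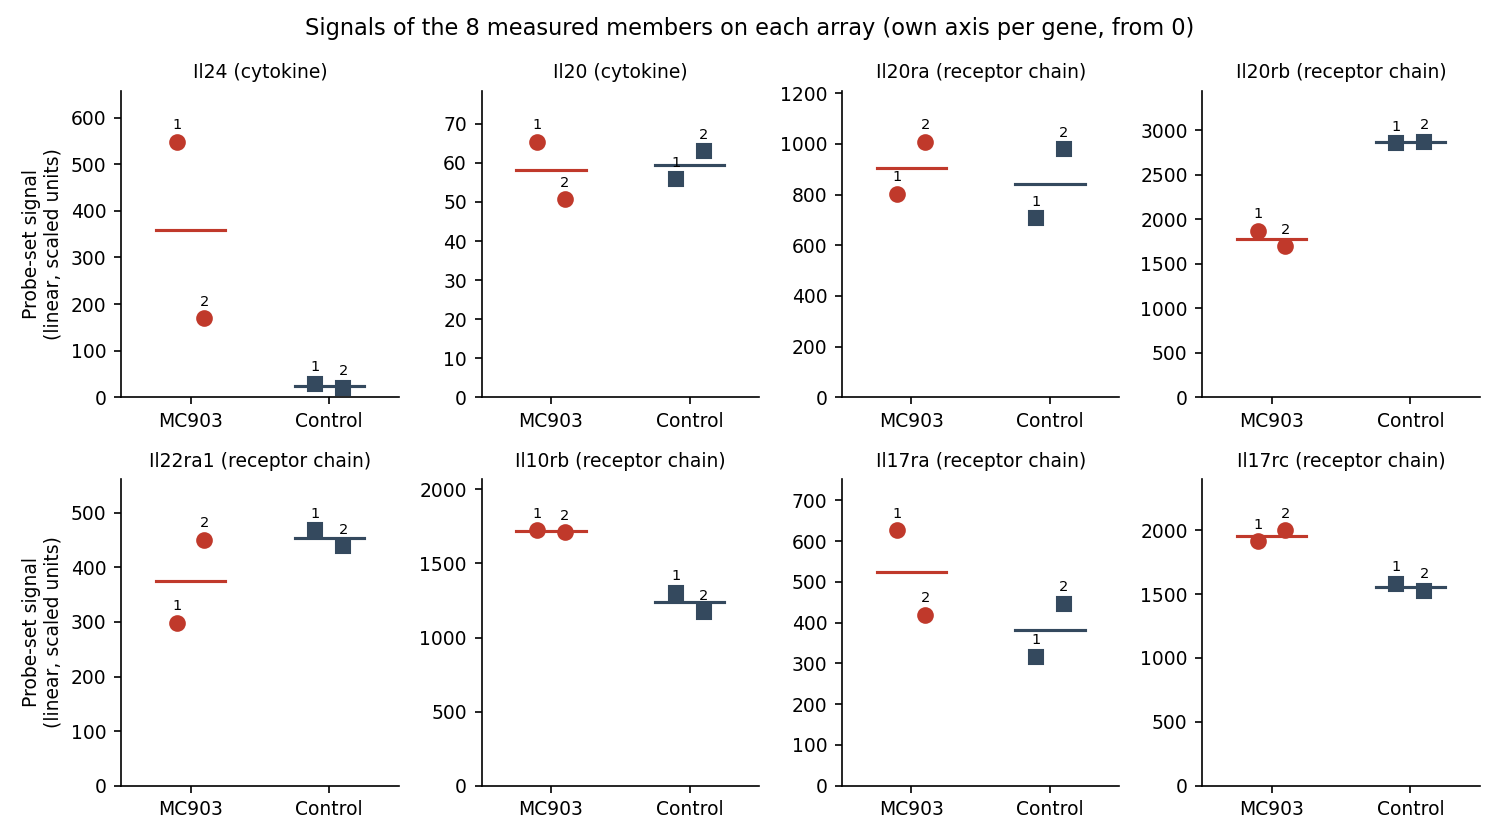
Linear probe-set signals (scaled units) of the 8 measured genes, each panel with its own axis from 0. Circles are MC903 arrays, squares are Control arrays, digits are replicate numbers and lines are group means. The groups are apart for Il24, Il20rb, Il10rb and Il17rc and overlap for the other genes.

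Il24 encodes IL-24, a cytokine of keratinocytes and immune cells. Its signals were 549 and 170 in MC903 skin, against 29.1 and 20.3 in Control skin. The groups were apart, and MC903 replicate 1 was much the brighter of its group. The ratio of the mean signals was 14.6. On the log2(signal + 16) scale, which understates differences of dim genes, the difference was 3.0 ± 0.58 (SE, n = 2 per group, 95% interval 1.45 to 4.55; limma, adjusted p = 0.194, or 0.0904 with the prior that follows the signal). It was 3.80 for MC903 replicate 1 alone and 2.20 for MC903 replicate 2 alone, each against the mean of the Control arrays. The smallest gap between an MC903 and a Control array was 2.04, larger than the gaps within the groups (1.60 in MC903 and 0.31 in Control). In each of the 4 pairings across the groups signal + 16 was at least 2-fold higher for Il24, as it was for 1.16% of all genes. For none of the 8 genes was signal + 16 at least 2-fold lower in each pairing, against 0.813% of all genes. The Control signals of Il24 were close to background, each just above the highest TrpnX signal of its own array (24.0 and 18.7). The size of the ratio is therefore loosely set.

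Some summed marker signals of other cells were higher in the same arrays as Il24. The 4 wound keratinocyte keratins had summed signals of 127098 and 84838 in MC903 skin, against 21966 and 23444 in Control skin. Of 8 neutrophil markers 7 were measured, with sums of 2114 and 754 in MC903 skin and 577 and 476 in Control skin. Both MC903 arrays lay above both Control arrays for 3 of these 7, against 21.6% of all genes, and the groups overlapped for 4. For 8 of 9 macrophage and monocyte markers the sums were 42249 and 26885 in MC903 skin and 19924 and 20067 in Control skin. Of these 8, 7 were higher in both MC903 arrays and 1, Mertk, was lower, against 21.6% and 28.2% of all genes. Like Il24, these 3 lists were highest in MC903 replicate 1. Other sums were higher in MC903 replicate 2. Skeletal muscle markers had 9630 and 38309 in MC903 skin, against 49110 and 29980 in Control skin. Adipocyte markers had 16752 and 22973, against 12677 and 11240, and suprabasal keratinocyte markers 211874 and 242759, against 191598 and 175344. The MC903 arrays thus also differed in markers of other tissue. For 8 of 9 T cell markers the sums were nearly equal in the MC903 arrays, 1780 and 1742, against 788 and 944 in Control skin. No marker of these lists was at 0 on all arrays, and the part of these cells in the Il24 difference was not tested.

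Il20 encodes IL-20, and the RefSeq gene order on mouse chromosome 1 is Il24, Il20, Il19 and Il10, side by side. Il20 had signals of 65.5 and 50.7 in MC903 skin, against 55.8 and 63.0 in Control skin. The groups overlapped, and MC903 replicate 1 was the highest array and MC903 replicate 2 the lowest. The difference was -0.03 ± 0.19 (SE, n = 2 per group, 95% interval -0.53 to 0.47, limma adjusted p = 0.952), so a true difference within that interval remains possible. The interval lies wholly below that of Il24. Il10, the next gene but Il19 in this row, encodes the anti-inflammatory cytokine IL-10 and had signals of 65.5 and 40.1 in MC903 skin, against 38.6 and 38.3 in Control skin. Its difference of 0.31 ± 0.24 came mostly from MC903 replicate 1 (limma, adjusted p = 0.574).

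Il20rb, the chain common to both receptors of the IL-20 subfamily, was lower in MC903 skin. Its signals were 1871 and 1693 in MC903 skin, against 2854 and 2870 in Control skin. The groups were apart, and the arrays within each lay close together. The difference was -0.68 ± 0.16 (SE, n = 2 per group, 95% interval -1.10 to -0.26; limma, adjusted p = 0.225, or 0.0739 with the prior that follows the signal), that is, a mean signal 37.7% lower. The smallest gap between the groups, -0.61, exceeded the gaps within them, 0.14 in MC903 and 0.01 in Control. Hair shaft genes were lower in the same arrays, with summed signals of 1291 and 688 in MC903 skin and 19407 and 34253 in Control skin for 6 of 8 listed genes. Basal keratinocyte markers, all 8 measured, had sums of 112829 and 109436 in MC903 skin and 115924 and 117399 in Control skin. Both MC903 arrays were below both Control arrays for 5 and above for 3, against 28.2% and 21.6% of all genes. At an unadjusted limma p below 0.05, 2 were lower and 0 higher, against 8.39% and 6.82% of all genes. For example, Dst had a log2 difference of -0.65 ± 0.15 and Krt14 one of 0.28 ± 0.16. The part of these cells in the Il20rb difference was not tested.

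Il20ra, which pairs with IL-20RB to bind all 3 cytokines of the subfamily, had groups that overlapped. Its signals were 802 and 1009 in MC903 skin, against 707 and 980 in Control skin. Replicate 1 was the lower array in each group. The difference was 0.11 ± 0.24 (SE, n = 2 per group, 95% interval -0.55 to 0.77; limma, adjusted p = 0.859). Il22ra1, the partner of IL-20RB for IL-20 and IL-24 and of IL-10RB for IL-22, had signals of 299 and 451 in MC903 skin, against 468 and 439 in Control skin. Only MC903 replicate 1 lay below the Control arrays. Its difference of -0.29 ± 0.25 was -0.58 for MC903 replicate 1 and -0.01 for MC903 replicate 2 (limma, adjusted p = 0.615).

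Il10rb, the chain shared by the receptors for IL-22, IL-10 and the interferon lambdas, had signals of 1725 and 1711 in MC903 skin, against 1303 and 1171 in Control skin. The MC903 arrays were nearly equal and lay above the Control arrays. The difference was 0.47 ± 0.16 (SE, n = 2 per group, 95% interval 0.04 to 0.90; limma, adjusted p = 0.303), a mean signal 38.9% higher. A second probe set of Il10rb went the other way, with signals of 35.5 and 42.5 in MC903 skin and 56.4 and 85.2 in Control skin (log2 difference -0.64). With both probe sets averaged on the log2 scale the Il10rb difference became -0.085.

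Il17ra, the common chain of IL-17 receptors, had signals of 627 and 419 in MC903 skin, against 317 and 447 in Control skin. The groups overlapped, with MC903 replicate 2 below Control replicate 2. The difference was 0.43 ± 0.29 (SE, n = 2 per group, 95% interval -0.36 to 1.22; limma, adjusted p = 0.535). On its other probe set the groups were apart, with signals of 239 and 232 in MC903 skin and 163 and 192 in Control skin (log2 difference 0.38). Il17rc, the chain that joins IL-17RA to bind IL-17A and IL-17F, had signals of 1916 and 2002 in MC903 skin, against 1580 and 1527 in Control skin. The MC903 arrays lay above the Control arrays by a gap of at least 0.28 on the log2 scale, against gaps of 0.06 in MC903 and 0.05 in Control. The difference was 0.33 ± 0.15 (SE, n = 2 per group, 95% interval -0.08 to 0.74; limma, adjusted p = 0.394), a mean signal 26.1% higher. The other Il17rc probe set had signals of 2.66 to 38.4, mostly within the TrpnX range.

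RefSeq's promoter table (GRCm38.p6) was read for the sequence before the start of these genes and matched 7 of the 10 (Il19, Il20, Il17c, Il20ra, Il20rb, Il22ra1 and Il17rc). Shown here are Il20rb, the receptor gene with the largest difference, its partner gene Il20ra, whose groups overlapped, and Il17rc, which differed the other way. Each is the 250 bases before the start, 5′ to 3′ on the gene's strand. Il20rb is at chr9:100486474-100486723 on the minus strand, Il20ra at chr10:19712337-19712586 on the plus strand and Il17rc at chr6:113471205-113471454 on the plus strand. Capitals mark a match to any of 4 motifs described after the sequences.
Il20rb: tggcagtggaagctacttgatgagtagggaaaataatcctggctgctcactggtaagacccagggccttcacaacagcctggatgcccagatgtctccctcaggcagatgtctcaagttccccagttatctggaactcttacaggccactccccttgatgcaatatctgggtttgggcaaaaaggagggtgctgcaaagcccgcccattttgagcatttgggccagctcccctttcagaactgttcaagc
Il20ra: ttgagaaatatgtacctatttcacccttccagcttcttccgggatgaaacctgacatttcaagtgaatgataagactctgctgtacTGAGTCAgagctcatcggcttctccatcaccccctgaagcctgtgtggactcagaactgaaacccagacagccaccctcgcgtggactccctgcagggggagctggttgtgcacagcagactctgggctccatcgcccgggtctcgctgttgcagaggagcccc
Il17rc: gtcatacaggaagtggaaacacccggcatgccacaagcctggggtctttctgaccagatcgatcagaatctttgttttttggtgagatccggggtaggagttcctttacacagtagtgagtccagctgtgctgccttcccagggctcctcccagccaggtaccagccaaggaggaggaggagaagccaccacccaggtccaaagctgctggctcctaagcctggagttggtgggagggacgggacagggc

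Both strands were searched for a STAT motif (TTCNNNGAA), an AP-1 motif (TGANTCA), an NF-kB motif and the direct repeat of the vitamin D receptor. No match lay in the windows of Il20rb, Il17rc, Il20 or Il17c. The match in Il20ra is an AP-1 motif that begins at position -164 from the start, and Il22ra1 has an AP-1 motif at position -222. The Il19 window held a STAT motif at position -225 and an NF-kB motif at position -77. Among 32851 promoter windows of the same length, 7.02% held the STAT motif, 6.75% the AP-1 motif, 3.90% the NF-kB motif and 0.0396% the direct repeat, which was in none of the 7 windows. A match is a description of letters and not a binding site.

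Set side by side, the 2 measured cytokines had differences of 3.0 and -0.03 and a median of 1.49, and the 6 receptor chains had differences of -0.68 to 0.47 and a median of 0.22. The median over all genes was -0.04. The cytokine median is the midpoint of 2 very different genes and was 1.26 above the receptor median. That gap was 1.83 without MC903 replicate 2 and 0.80 without MC903 replicate 1. The receptor median was 0.037 without Control replicate 1. The 3 chains that bind cytokines of the IL-20 subfamily (Il20ra, Il20rb and Il22ra1) had differences of -0.68 to 0.11, and Il10rb, Il17ra and Il17rc had differences of 0.33 to 0.47.

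**Figure D2:**
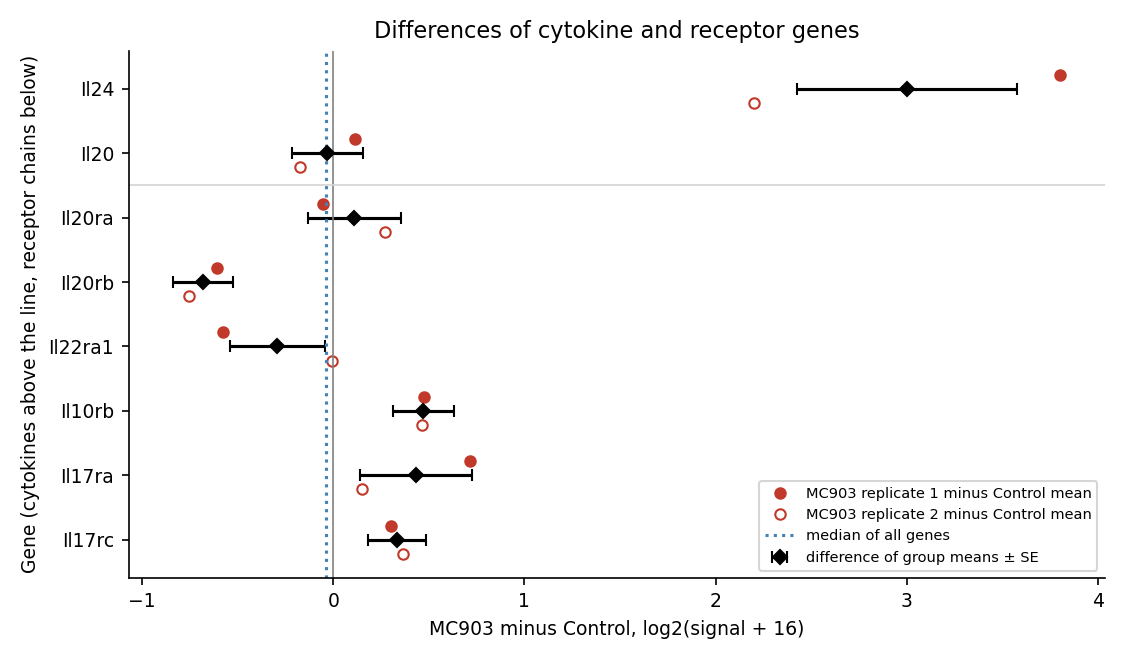
MC903 minus Control differences on the log2(signal + 16) scale for the 2 measured cytokines (upper) and the 6 receptor chains (lower). Diamonds with bars are differences of group means ± SE (n = 2 per group), circles are each MC903 array against the mean of the Control arrays (filled, replicate 1, open, replicate 2), and the dotted line is the median of all genes (-0.04). Il24 stands at 3.0, and the receptor chains lie between -0.68 and 0.47.

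The other ligands and receptors measured had differences of -0.78 to 0.59. Of 7 other IL-10 family genes 4 were measured, with a median difference of 0.12. limma called 0 of them, with 0 at an unadjusted p below 0.05, against 15.2% of all genes. Both MC903 arrays were above both Control arrays for 2 of the 4 and below for 1, against 21.6% and 28.2% of all genes. Il22ra2, the soluble receptor that binds and blocks IL-22, had signals of 454 and 651 in MC903 skin, against 768 and 1038 in Control skin. The groups were apart, MC903 lower, with a difference of -0.70 ± 0.27 (limma, adjusted p = 0.341). Il10ra, the specific chain of the IL-10 receptor, had signals of 305 and 166 in MC903 skin, against 141 and 147 in Control skin, a difference of 0.59 ± 0.32 that was 0.18 for MC903 replicate 2 alone. Il22 was not analysed here, since the only probe set found for it carries a second gene symbol.

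In the IL-17 family 7 of 8 further genes were measured, with a median difference of -0.38. Both MC903 arrays were below both Control arrays for 4 of the 7, against the 28.2% of all genes given above, and limma called 0, with 1 lower at an unadjusted p below 0.05, against 8.39% of all genes. Il17re, the IL-17RE chain for IL-17C, had signals of 638 and 607 in MC903 skin, against 786 and 839 in Control skin. That is a difference of -0.38 ± 0.15 (limma, adjusted p = 0.360), opposite in sign to that of Il17rc, its immediate neighbour on chromosome 6. Il17rb, the specific chain for IL-25, had signals of 168 and 166 in MC903 skin, against 237 and 215 in Control skin. Il17rd, a receptor-like modulator of the family, had 105 and 113 in MC903 skin, against 149 and 148 in Control skin. Their differences were -0.40 ± 0.16 and -0.39 ± 0.15. So the 3 receptor genes Il17re, Il17rb and Il17rd were lower in both MC903 arrays, and none passed the test.

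Il17a, the ligand of IL-17RA with IL-17RC, had signals of 44.8 and 39.6 in MC903 skin, against 54.6 and 19.8 in Control skin, with overlapping groups and a difference of 0.21 ± 0.37. The Il17a signal of Control replicate 2 was just above the highest TrpnX signal of its array (18.7), so that difference is loosely set. Il25 had signals of 11.8 and 18.4 in MC903 skin and 9.04 and 4.90 in Control skin, all within the TrpnX range. Il17d, an IL-17 ligand of less known action, had the lowest difference of the list, with 72.3 and 104 in MC903 skin, against 180 and 143 in Control skin (-0.78 ± 0.24; limma, adjusted p = 0.275). Il17f was not analysed here. Of 6 listed markers of gamma delta T cells, which make IL-17 in mouse skin, 3 were measured, with summed signals of 486 and 399 in MC903 skin and 628 and 574 in Control skin.

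**Figure D3:**
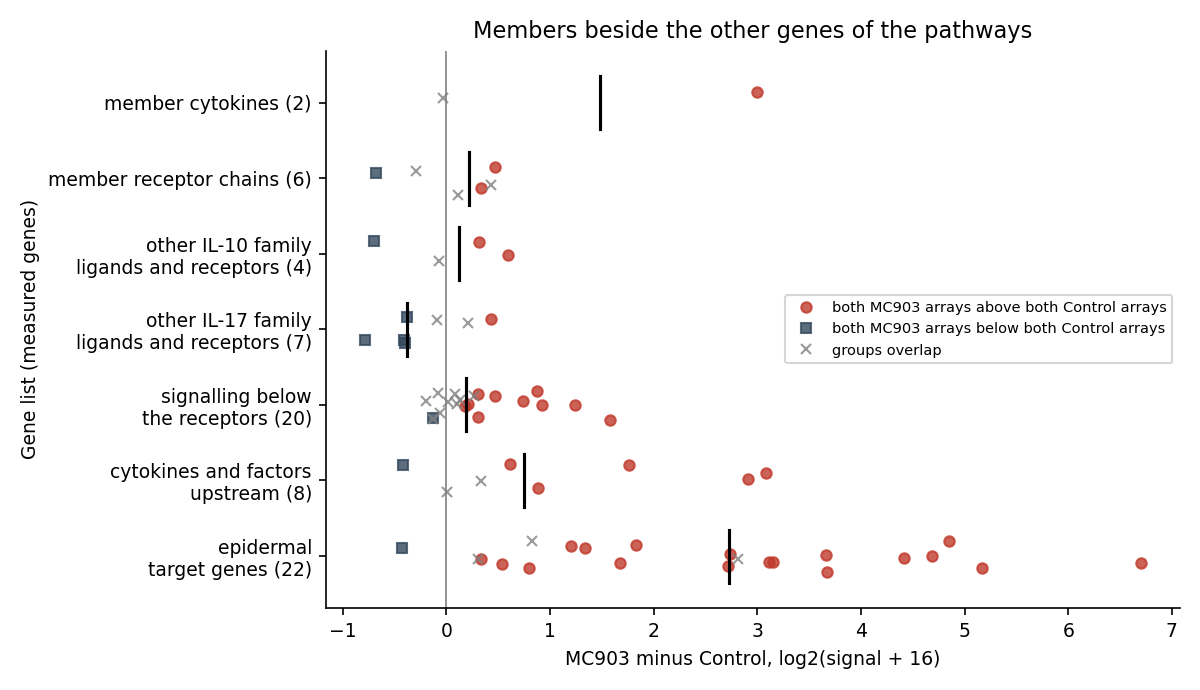
MC903 minus Control differences, log2(signal + 16), of the measured genes of each list, with a vertical bar at each list's median. Circles are genes with both MC903 arrays above both Control arrays, squares the reverse, and crosses genes whose groups overlap. The 22 epidermal target genes have a median of 2.73, the 6 receptor chains one of 0.22.

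Below the receptors, 20 of 21 listed signalling genes were measured, with a median difference of 0.19. Both MC903 arrays were above both Control arrays for 10 and below for 1, against 21.6% and 28.2% of all genes. limma called 0 of them, with 6 higher and 0 lower at an unadjusted p below 0.05, against 6.82% and 8.39% of all genes. The list's highest difference was that of Socs3, the inhibitor that STAT3 induces, which had signals of 2374 and 1342 in MC903 skin, against 479 and 719 in Control skin, a difference of 1.58 ± 0.37 (limma, adjusted p = 0.229). Zc3h12a, an RNase that restrains IL-17 signalling, had 397 and 486 in MC903 skin, against 173 and 179 in Control skin (1.25 ± 0.18; limma, adjusted p = 0.159, or 0.0712 with the prior that follows the signal). Both genes were higher in each MC903 array than in each Control array.

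Stat3 itself, the transcription factor below the IL-20 and IL-22 receptors, had signals of 4068 and 3047 in MC903 skin, against 2007 and 2215 in Control skin, a difference of 0.74 ± 0.21. Nfkbiz, a nuclear cofactor that IL-17 induces in keratinocytes, had 1421 and 2258 in MC903 skin, against 945 and 927 in Control skin, a difference of 0.93 ± 0.27. The adaptor Traf3ip2, which couples IL-17 receptors to their signalling, differed by only 0.21 ± 0.16, with 901 and 957 in MC903 skin, against 769 and 834 in Control skin. Stat5b had the lowest difference, -0.19 ± 0.24. Other inflammatory cytokines also act on these signalling genes.

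Among upstream cytokines and factors, 8 of 10 were measured, with a median of 0.75, and limma called 0, with 3 higher and 1 lower at an unadjusted p below 0.05, against 6.82% and 8.39% of all genes. Il6, which like IL-24 signals to STAT3, had signals of 818 and 128 in MC903 skin, against 37.3 and 15.4 in Control skin, a difference of 3.08 ± 0.91. The signal of Control replicate 2 was below the highest TrpnX signal of its array (18.7), so the size of that difference is loosely set. Il6 shared with Il24 a brighter MC903 replicate 1. Ahr, a ligand-activated factor that promotes IL-22, had 2722 and 2673 in MC903 skin, against 3506 and 3724 in Control skin (-0.42 ± 0.15; limma, adjusted p = 0.323).

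Genes known to respond to IL-17 and IL-22 in the epidermis had the highest median of the pathway lists. Of 25 listed, 22 were measured, with a median of 2.73, or 3.70 and 1.51 for MC903 replicates 1 and 2 alone. Both MC903 arrays were above both Control arrays for 18 and below for 1, against 21.6% and 28.2% of all genes. limma with a constant prior called 0, with 13 higher and 0 lower at an unadjusted p below 0.05, against 6.82% and 8.39% of all genes. The prior that follows the signal called 6 higher and 0 lower, against 0.923% of all genes in either direction. Cxcl1, a neutrophil chemokine, had signals of 471 and 331 in MC903 skin, against 98.6 and 100.2 in Control skin, a difference of 1.83 ± 0.22 (limma, adjusted p = 0.153, or 0.0480 with the prior that follows the signal). Ccl20, which attracts cells that make IL-17, had 205 and 315 in MC903 skin, against 117 and 70.2 in Control skin (1.34 ± 0.33). Lcn2, an antimicrobial protein, had 6213 and 1187 in MC903 skin, against 276 and 327 in Control skin (3.11 ± 0.82). The extremes of the list were Krt6b, a wound keratin, at 6.70 ± 0.48, and Serpinb3a, a protease inhibitor, at -0.43 ± 0.21. The calprotectin subunit S100a8, with 36943 and 5891 in MC903 skin and 422 and 732 in Control skin, was also brighter in MC903 replicate 1. S100a8, S100a9 and Lcn2 are abundant in neutrophils too, and the neutrophil marker sums given above (2114 and 754 in MC903 skin, 577 and 476 in Control skin) and those of macrophages and monocytes were likewise highest in that array. The part of these cells in the differences of the list was not tested. The list also holds the 4 wound keratinocyte keratins whose sums are given above. These genes respond to other cytokines too, and the list was drawn up with earlier results of these arrays known.

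Genes with patterns most like those of Il24, Il20rb and Il10rb, the 3 genes of the set with the largest differences, were sought among 9090 brighter genes by the root mean square distance between log2 values centred on each gene's mean over the 4 arrays. Nearest to Il24 were Gjb6 (a connexin, distance 0.16), Chil1 (a chitinase-like protein, 0.22) and Hp (haptoglobin, 0.24). Gjb6 had signals of 4214 and 1526 in MC903 skin, against 379 and 356 in Control skin, with the same excess of MC903 replicate 1. Nearest to Il20rb were Apcdd1 (a Wnt inhibitor, 0.01), Tmem64 (0.02) and Exoc2 (an exocyst subunit, 0.03), and nearest to Il10rb were Ptk6 (an epithelial tyrosine kinase, 0.02), Snap29 (0.02) and Grpel2 (0.02). With 4 arrays many genes lie near any pattern, and these are a description only. The probe sets of Apcdd1, Socs3, Il17d, Il17re, S100a8 and Serpinb3a are of a kind that may also bind transcripts of other genes.

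**Figure D4:**
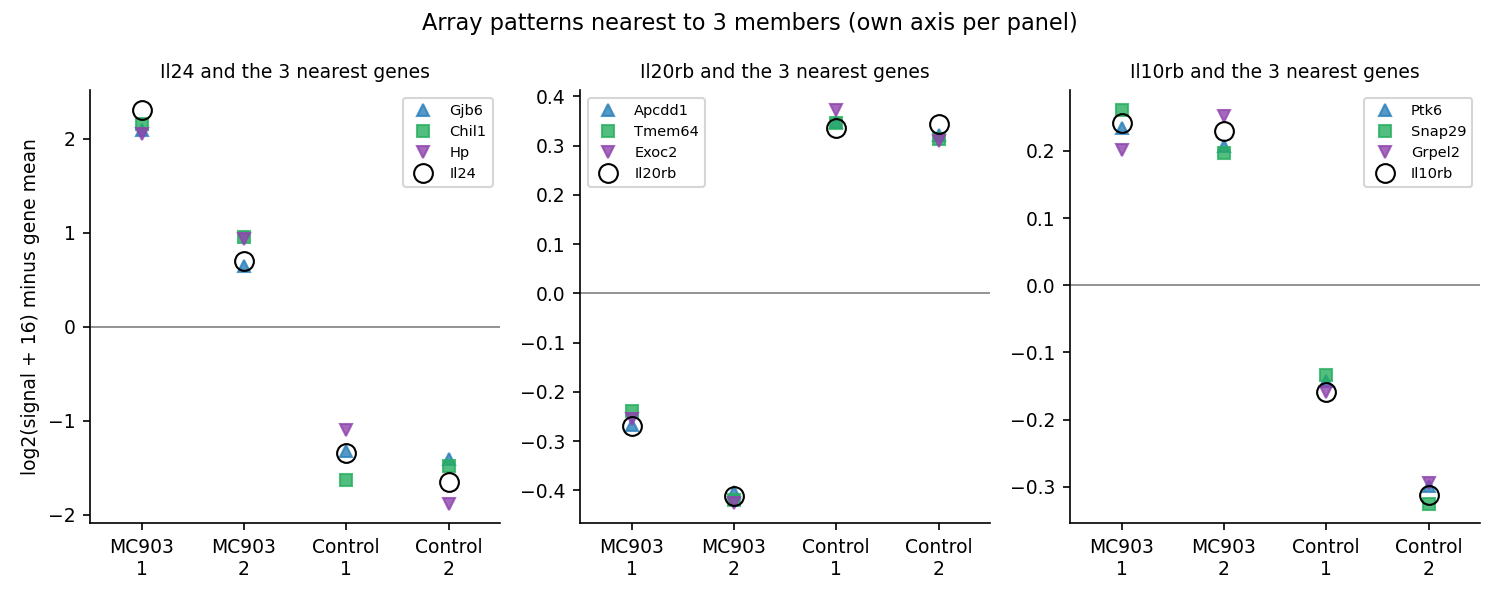
log2(signal + 16) minus the gene's mean on each of the 4 arrays, for Il24, Il20rb and Il10rb (open circles) and the 3 genes nearest to each, each panel with its own axis. MC903 replicate 1 exceeds MC903 replicate 2 for Il24 and its neighbours, while the MC903 arrays are nearly level for Il10rb.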

How the data were processed

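From 200 ng of total RNA per sample, biotin-labelled material was prepared and hybridised to 3′ arrays, as the labels' protocols describe. The deposited intensity values are linear signals of 45101 probe sets on 4 arrays. Which software made them the labels do not say. Leaving out the top and bottom 2%, the mean was 500 on each array, so the deposited intensity had been scaled. No 2 arrays were identical.

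Probe sets were named from the platform annotation and updated through Entrez ID to RefSeq (GRCm38.p6). Controls (64), probe sets with several symbols (932) and probe sets not listed (9160) were left out. Per gene the probe set with the highest mean log2(signal + 16) was kept, giving 18193 genes. The groups come from the sample titles, and log2(signal + 16) was fitted with limma 3.58.1 in R 4.3.3 (lmFit, eBayes, constant prior, 2 residual and 2.32 prior degrees of freedom, Benjamini-Hochberg over all genes, threshold 0.05). The fit was also run on simulated data, with spread drawn from the fit whose prior follows the signal. Changes were put only into genes brighter than the median, so that run gives no guide to dim genes. The number of arrays limits the precision.

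The genes and lists were chosen with earlier results of these data known. Named were all 10 genes of the set, 18 list genes fixed by name, each list's highest and lowest gene, and the 3 nearest patterns of 3 genes. Krt5, Krt14, Dst and the marker lists are named beside results that they accompany. There were 14 alternative settings and 2 more chosen after seeing the data (the probe set with the highest mean linear signal and a crossed replicate block). Nothing in the labels says that a shared replicate number pairs arrays.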

Additional observations from a re-analysis of the deposited data

How the results depend on the processing

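None of the 8 genes was called under any of the 16 alternatives, and Il20rb, Il22ra1, Il17ra and Il17rc kept their direction in all of them, as did Il24 in the 15 that kept it. Il24 differed by 2.10 to 3.80 and Il20rb by -0.75 to -0.58, with adjusted p-values of 0.0904 to 0.614 and 0.0739 to 0.661. Il20 and Il24 were left out with the dimmest 50% of genes, so the cytokine medians could not be had there. Over all genes limma called 0 in the main setting, but 70 with a constant of 64, 36 and 190 without the dimmest 25% and 50%, 12 with probe sets averaged, 5 with the probe set of highest mean linear signal (added after seeing the data) and 168 with the prior that follows the signal, and 0 with any array left out. Il20 turned positive with quantile normalization (0.017) and centring (0.073), Il10rb became -0.085 with probe sets averaged, where the receptor median was 0.012, and the cause was not tested.

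With 1 array left out, taking a lone array to be as variable as the opposite pair, Il20 ranged from -0.18 to 0.11, Il20ra from -0.12 to 0.34, the receptor median from 0.037 to 0.32 and its gap to the cytokine median from 0.80 to 1.83. Genes without overlap then numbered 3 to 5 above and 1 to 2 below, 5 above without MC903 replicate 2 or Control replicate 2 and 2 below without those or MC903 replicate 1, since a group of 1 overlaps less easily. The shares of all genes then were 32.3% to 35.8% above and 38.9% to 44.2% below, against 21.6% and 28.2% with all arrays. With the replicate block limma called 0 genes, the Il24 difference stayed at 3.0 (SE 0.39, adjusted p = 0.292) and that of Il20rb at -0.68 (SE 0.20, adjusted p = 0.350). The block changed no call. Deviations of same-numbered arrays correlated at -0.061 across all genes and at -0.12 across the brighter 50%, and crossing the numbers (chosen after seeing the data) also gave 0 calls.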
